A study of Mus musculus with 2 samples.

Results

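The genes described are 36 markers of dividing cells, taken by symbol: 21 genes that peak in G2 and mitosis (G2/M), 13 genes of the G1/S transition and S phase (S), and Hmgb2 and Stmn1, which dividing cells raise but resting cells can also carry. All 36 symbols were found in both count matrices, among 32285 gene IDs. The 2 libraries came from tumours of wild-type mice bearing MC38-OVA, that is, MC38 colon carcinoma cells made to express the model antigen ovalbumin. 1 library was from mice on a control diet and 1 from mice whose diet held sitagliptin, a drug that blocks the peptidase DPP4. Tumour cell suspensions were enriched for CD45+ cells (CD45, encoded by Ptprc, marks leukocytes) by magnetic sorting and sequenced with the SeekOne DD 5' kit, which counts unique molecular identifiers (UMIs). Neither the age nor the number of mice per library is given in the sources used here.

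A cell that commits to division passes from G1 into S phase, when cyclin E with CDK2 and the E2F factors switch on the replication genes, and then through G2 into mitosis, when cyclins A and B with CDK1 drive the spindle and kinetochore genes. Transcripts of the mitotic genes are largely held off in resting cells by the DREAM complex, which binds promoters at E2F and CHR elements, so their level in a cell mixture follows the share of cells in late cycle. In tumours, activated T cells, some macrophages, dendritic cell precursors and the malignant cells themselves can divide, while mature neutrophils have left the cycle.

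The libraries held 8694 (Control) and 9766 (Sitagliptin) barcodes with 64139749 and 76788699 UMIs, and every barcode had more than 2000 UMIs. The 36 genes took 0.360% and 0.292% of all UMIs. Scrublet called no doublet on its own threshold, so the 6% of barcodes with the highest doublet scores were removed in each library, and 132 barcodes occurred in both libraries. Classes were called from marker UMIs. Barcodes with 5 or more UMIs per 10,000 of 10 genes taken as leading the Ptprc-low cells were kept apart from the immune classes, a step chosen after the data were seen. The 10 genes were Cald1, Htra1, Crabp1, Tm4sf1, Aebp1, Tnnt2, Sox9, Pcolce, Hmga2 and Fosl1. The step set apart 1261 and 1172 barcodes with macrophage or monocyte markers in Control and Sitagliptin, 15.4% and 12.8% of those kept. Another 1701 and 1714 barcodes were in no class. The classes held 176 and 309 T cells, 47 and 60 NK cells, 2625 and 3763 macrophages, 486 and 758 monocytes, 92 and 137 dendritic cells, 9 and 10 neutrophils and 1099 and 652 cells with little Ptprc in Control and Sitagliptin. The last class had been labelled tumour-like, but its epithelial markers were near 0 (0.634 and 1.86 UMIs per 1000000 for 10 genes summed, 6 and 7 of them with any UMI). Its leading genes were Cald1, Htra1, Crabp1, Nedd4 (not among the 10 genes used to keep barcodes apart) and Tm4sf1. Fibroblast markers were at 317 and 376, so the class is called here by its low Ptprc.

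With 1 library per diet there was no replicate, so no test between the diets could be made and diet cannot be told apart from library. Levels are UMIs per 1000000 UMIs of the class (counts per 1000000, CPM) with exact Poisson 95% intervals, and ratios are Sitagliptin over Control with exact conditional binomial 95% intervals. These intervals, and the Clopper-Pearson intervals of shares, cover counting error only. A gene was counted as lower at a ratio of 0.8 or less and as higher at the inverse of 0.8 or more, given at least 20 UMIs in the class over both libraries.

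Promoters in RefSeq (GRCm38.p6) were found for 29 of the 36 members, and none was found for Ccna2, Aurkb, Tpx2, Kif20a, Mcm4, Ccne2 and Stmn1. They run from 250 bases before to 50 after the start site. Searched on both strands, the CHR element TTTGAA was in 12 of 17 G2/M promoters (70.6%) and 1 of 11 S promoters (9.09%), against 18.1% of the 27025 promoters in the table. The CCAAT box (letters CCAAT) was in 15 of 17 G2/M and 8 of 11 S promoters, against 37.9% of all promoters. A CHR element together with at least 2 CCAAT boxes was in 9 of 17 G2/M and 0 of 11 S promoters, against 2.19% of all. An E2F site (TTTGGCGC, TTTCGCGC, TTTCCCGC or TTTGCCGC) was in 4 of 11 S and 1 of 17 G2/M promoters, against 2.32% of all. The 4 S promoters with an E2F site were those of Mcm3, Mcm5, Mcm6 and Mcm7. Such matches describe letters in a window, not binding, and overlapping matches were counted separately.

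The promoters of 6 members, chosen from the T cell results, are printed. No link between promoter letters and ratios was tested. Ube2c and Cenpf had the lowest ratios among G2/M members with at least 100 UMIs, Top2a and Mki67 had the most G2/M UMIs, and Mcm3 and Pcna had the highest ratios among S members with at least 100 UMIs. Capitals mark CHR elements and CCAAT boxes on either strand, and E2F sites.
Ube2c: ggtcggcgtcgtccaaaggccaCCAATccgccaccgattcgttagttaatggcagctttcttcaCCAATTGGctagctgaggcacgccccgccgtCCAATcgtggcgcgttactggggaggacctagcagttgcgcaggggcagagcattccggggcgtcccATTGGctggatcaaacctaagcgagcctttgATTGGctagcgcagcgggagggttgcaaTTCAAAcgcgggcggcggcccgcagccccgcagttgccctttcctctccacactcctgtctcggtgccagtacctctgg
Cenpf: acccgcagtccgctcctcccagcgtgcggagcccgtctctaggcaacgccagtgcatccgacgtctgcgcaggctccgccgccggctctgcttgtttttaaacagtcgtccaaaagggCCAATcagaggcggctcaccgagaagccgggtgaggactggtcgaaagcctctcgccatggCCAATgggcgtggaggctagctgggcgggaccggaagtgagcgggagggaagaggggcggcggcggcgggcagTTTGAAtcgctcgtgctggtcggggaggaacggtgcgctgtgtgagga
Top2a: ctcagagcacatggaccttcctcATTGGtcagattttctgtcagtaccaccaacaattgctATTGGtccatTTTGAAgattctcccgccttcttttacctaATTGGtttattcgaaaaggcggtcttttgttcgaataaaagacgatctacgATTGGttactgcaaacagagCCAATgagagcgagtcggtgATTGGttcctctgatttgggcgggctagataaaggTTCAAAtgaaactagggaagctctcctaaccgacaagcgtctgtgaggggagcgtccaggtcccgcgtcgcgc
Mki67: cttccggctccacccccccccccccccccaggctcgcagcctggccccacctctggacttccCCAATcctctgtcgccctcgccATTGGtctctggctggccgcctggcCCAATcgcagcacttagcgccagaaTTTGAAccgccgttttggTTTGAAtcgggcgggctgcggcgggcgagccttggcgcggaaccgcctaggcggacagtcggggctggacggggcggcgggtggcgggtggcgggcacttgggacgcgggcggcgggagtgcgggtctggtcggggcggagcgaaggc
Mcm3: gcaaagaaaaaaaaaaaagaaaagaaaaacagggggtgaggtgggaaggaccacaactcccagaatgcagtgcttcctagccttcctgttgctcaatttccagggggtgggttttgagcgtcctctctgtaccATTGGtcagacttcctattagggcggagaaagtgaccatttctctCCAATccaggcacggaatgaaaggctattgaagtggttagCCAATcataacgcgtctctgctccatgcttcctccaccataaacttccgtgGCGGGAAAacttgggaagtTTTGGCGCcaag
Pcna: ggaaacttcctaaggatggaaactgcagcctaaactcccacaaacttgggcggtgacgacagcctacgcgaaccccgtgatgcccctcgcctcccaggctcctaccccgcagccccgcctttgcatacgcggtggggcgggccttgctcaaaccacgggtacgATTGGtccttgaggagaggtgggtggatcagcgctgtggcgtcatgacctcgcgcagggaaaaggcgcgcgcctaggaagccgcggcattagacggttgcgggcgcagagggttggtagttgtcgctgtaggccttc
The positions are Ube2c chr2:164769679-164769978 (plus strand), Cenpf chr1:189688037-189688336 (minus strand), Top2a chr11:99024140-99024439 (minus strand), Mki67 chr7:135716330-135716629 (minus strand), Mcm3 chr1:20820263-20820562 (minus strand), Pcna chr2:132253131-132253430 (minus strand). Ube2c and Top2a held 6 CCAAT boxes each, Mki67 held 2 CHR elements and 3 CCAAT boxes, and Cenpf held 1 CHR element and 2 CCAAT boxes. Mcm3 held 2 E2F sites and 3 CCAAT boxes with no CHR element, and Pcna held 1 CCAAT box alone.

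Across the classes, summed G2/M genes spanned more than an order of magnitude. Cells with little Ptprc had 3127 CPM (3101 to 3153) in Control and 2974 (2946 to 3003) in Sitagliptin, and T cells had 2459 (2351 to 2570) and 1775 (1707 to 1844). Macrophages had 974 and 838 CPM and NK cells 785 and 905. The few cDC1 (5 and 16 cells), which cross-present antigen, had 1386 and 1112 CPM. Monocytes were far lower at 150.1 and 128 CPM, near mature dendritic cells in Control (152 CPM) and plasmacytoid dendritic cells (94.5 and 114 CPM). Neutrophils, which do not divide, had 143 and 105 CPM from only 5 and 4 UMIs, with intervals of 46.5 to 334 and 28.7 to 269.5. The monocyte and plasmacytoid levels lay inside this wide interval, so they could not be set apart from that of neutrophils at this depth. Of 486 and 758 monocytes, 4 and 4 had 3 or more G2/M UMIs of 2000.

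**Figure D1:**
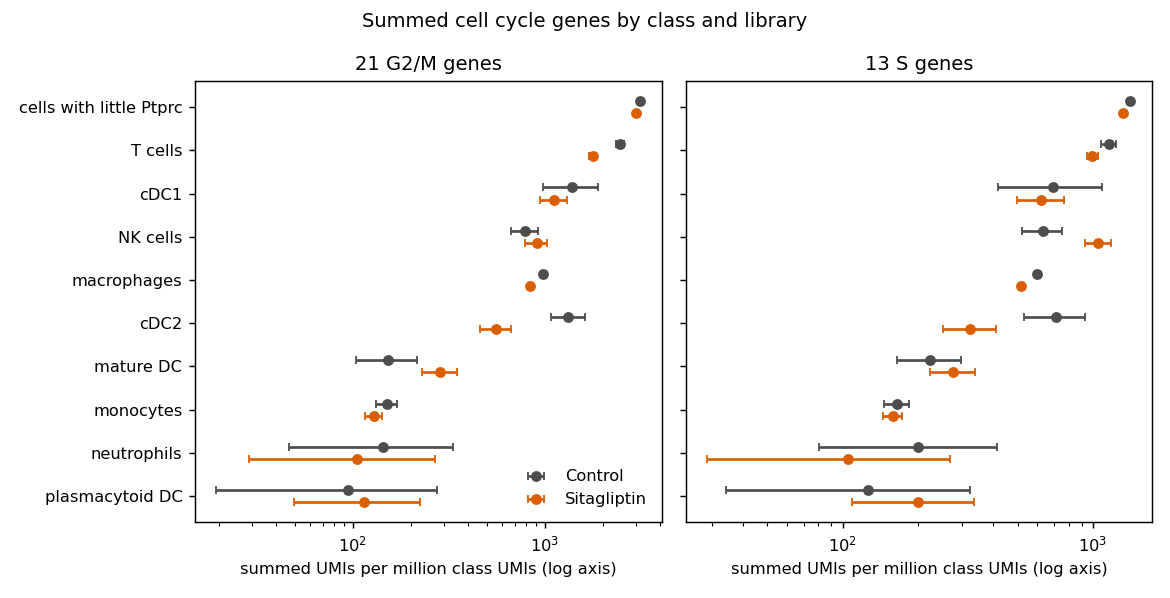
Summed UMIs of the 21 G2/M genes (left) and 13 S genes (right) in CPM of the class on log axes, for Control (grey) and Sitagliptin (orange), with exact Poisson 95% intervals. Cells with little Ptprc and T cells are highest, and monocytes, neutrophils and plasmacytoid dendritic cells lie lowest, with G2/M sums between 94.5 and 150.1 CPM.

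S genes followed nearly the same order over a narrower range. They had 1404 and 1321 CPM in cells with little Ptprc, 1154 and 994 in T cells, 629 and 1049 in NK cells, 599 and 518 in macrophages, 165 and 158 in monocytes and 201 and 105 in neutrophils. G2/M UMIs outnumbered S UMIs 2.23 and 2.25 times in cells with little Ptprc, 2.13 and 1.79 times in T cells and 1.63 and 1.62 times in macrophages. In monocytes the ratio was 0.912 and 0.812, so S genes outweighed G2/M genes there.

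The share of barcodes with 3 or more summed UMIs of the 36 genes per 10,000 was high in every class, neutrophils included. After every barcode was thinned to 2000 UMIs, where that threshold means 1 UMI, it was 90.5% and 87.0% in T cells, 84.5% and 91.5% in NK cells, 70.8% and 70.5% in monocytes and macrophages together, 65.1% and 68.0% in dendritic cells and 92.6% and 91.6% in cells with little Ptprc. Neutrophils had 79.2% and 62.4%, at median depths of 3151 and 2772.5 UMIs against 3734.5 and 3649 in T cells. Unthinned, the shares were 93.2% and 91.3% in T cells, 75.3% and 75.0% in monocytes and macrophages and 88.9% and 70.0% in neutrophils. Hmgb2 alone gave 69.6% and 64.7% of T cells and 28.9% and 30.0% of monocytes a UMI after thinning. G2/M genes at 2 or more UMIs of 2000 parted the classes: 42.6% and 29.0% of T cells, 23.6% and 24.5% of macrophages and 62.3% and 60.2% of cells with little Ptprc passed, against 3.62% and 2.49% of monocytes and 2.52% and 2.79% of neutrophils.

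**Figure D2:**
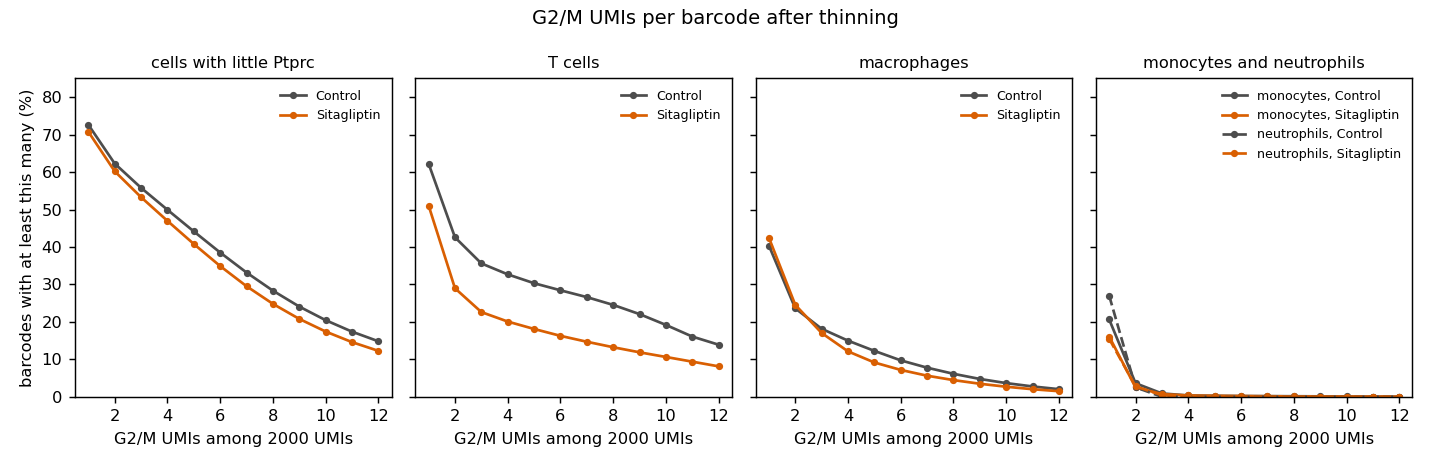
Percent of barcodes with at least the given number of G2/M UMIs after thinning to 2000 UMIs, for Control (grey) and Sitagliptin (orange). The T cell curves lie apart (19.2% and 10.6% at 10 UMIs), the macrophage curves cross, and the curves of monocytes and neutrophils reach near 0 by 4 UMIs.

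In T cells, G2/M genes were lower in the Sitagliptin library, with a ratio of 0.722 (0.680 to 0.766), and S genes had a ratio of 0.862 (0.793 to 0.937). The S ratio was 1.003 (0.928 to 1.08) with the 8 and 8 T barcodes that carry Ptprc-low genes counted in, and 0.931 (0.848 to 1.02) with the marker minimum doubled. Of the 34 members with at least 20 UMIs, 17 were lower by this rule and 1 was higher, where 24% of 8141 genes tested were lower and 16.9% higher. By group, 14 of 19 G2/M and 3 of 13 S members were lower. The median log2 ratio was -0.50 over G2/M members and -0.11 over S members, against -0.06 over all genes. Ccnb1, on 6 and 16 UMIs, was the 1 member counted higher, and Cdc20 and Kif20a had too few UMIs to count. The interval of Ccnb1, 0.540 to 4.53, holds 1.

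Among the cyclins and their kinase, Ccna2 (cyclin A2, active from S phase to G2) had 108 CPM in Control and 67.9 in Sitagliptin, a ratio of 0.627 (0.465 to 0.847). Cdk1, the mitotic kinase, had 51.6 and 22.6 CPM, a ratio of 0.438 (0.269 to 0.711). Ccnb2 (cyclin B2) did not share this, at 36.5 and 41.2 CPM with an interval of 0.712 to 1.82. Mki67, which coats mitotic chromosomes and is the usual division marker, had 449.7 and 292 CPM (0.650, 0.563 to 0.750). Top2a, the topoisomerase that untangles sister chromatids, had 457 and 389.6 CPM (0.852, 0.746 to 0.975).

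Kinetochore and centromere genes were lower as well. Cenpf had 155 and 93.3 CPM (0.602, 0.468 to 0.775) and Cenpa, the centromeric histone H3 variant, had 239 and 177 CPM (0.740, 0.611 to 0.897). Bub1b, a spindle checkpoint kinase, had 39.0 and 21.3 CPM (0.545, 0.320 to 0.926). Ube2c, the ubiquitin-conjugating enzyme of the anaphase-promoting complex, had 198 and 110.4 CPM (0.558, 0.445 to 0.700), the lowest ratio among members with at least 100 UMIs. Tpx2, which nucleates spindle microtubules, was at 0.706 (0.533 to 0.939), whereas Kif11, the motor that pushes spindle poles apart, was at 0.918 with an interval of 0.704 to 1.20.

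The 7 S members with at least 100 UMIs in T cells had ratios between 0.715 and 0.929. The helicase subunits Mcm2 to Mcm7 had ratios between 0.873 and 1.23, and every one of their intervals held 1. Pcna, the sliding clamp of the replication fork, had 205 and 191 CPM (0.929, 0.763 to 1.13). Among the enzymes that make DNA precursors, Rrm1, the large subunit of ribonucleotide reductase, had 229 and 164 CPM (0.715, 0.587 to 0.872) and Rrm2, its small subunit, 115 and 87.1 CPM (0.760, 0.576 to 1.01). Tyms (thymidylate synthase) was at 0.801 and Tk1 (thymidine kinase) at 1.09, with intervals that hold 1. The cyclin E genes lay on both sides of 1, Ccne2 at 0.622 (0.363 to 1.07) and Ccne1 at 1.20 (0.685 to 2.19). Hmgb2, a chromatin protein, had 1224 and 1255 CPM (1.02, 0.948 to 1.11) and Stmn1, which destabilises microtubules, 761 and 659 CPM (0.867, 0.782 to 0.961). Both have pseudogene copies that counting could have split, so their levels are less certain.

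**Figure D3:**
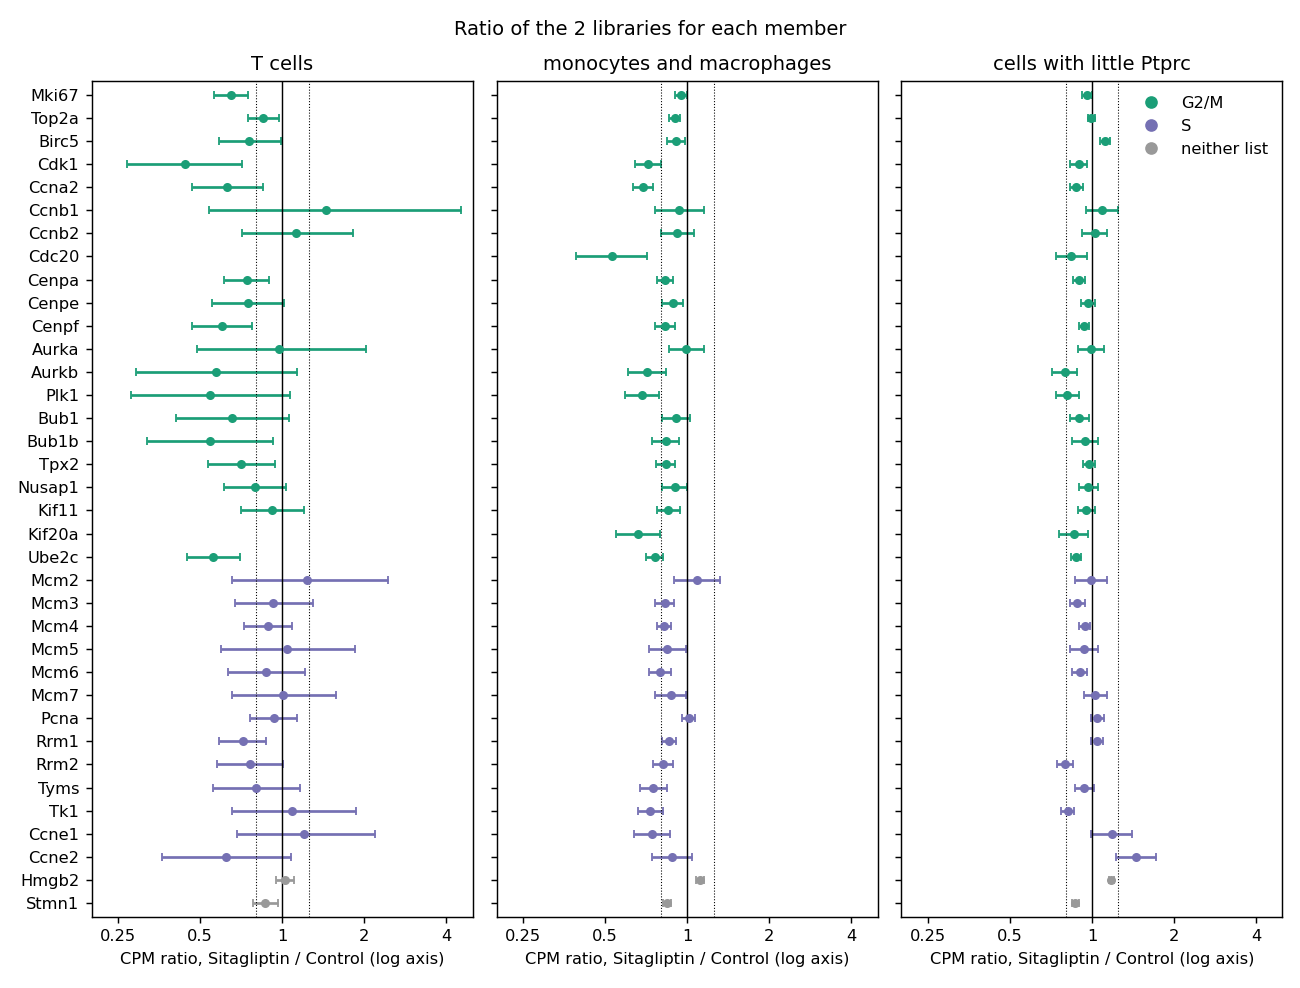
Ratio of CPM, Sitagliptin over Control, on a log axis for each member with at least 20 UMIs, in T cells, monocytes and macrophages and cells with little Ptprc, with exact conditional binomial 95% intervals. The solid line is 1 and the dotted lines are 0.8 and its inverse. G2/M points in T cells lie mostly left of the dotted line and the MCM points near 1, while in cells with little Ptprc Aurkb, Rrm2 and Ccne2 lie outside the dotted lines.

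Among 122 other cell cycle genes, counts in T cells are read against the 24% of all genes that were lower and the 16.9% that were higher. Of 51 measured genes of G2 and mitosis, 24 were lower and 1 was higher, with a median log2 ratio of -0.31. Of 39 genes of G1 to S and replication, 12 were lower and 3 higher, with a median of -0.17. Of 23 G1 regulators and inhibitors, 5 were lower and 3 higher, with a median of -0.07, near that of all genes. H2afx, Spc24 (a kinetochore subunit) and Cdca8 (a partner of Aurora B) had the lowest ratios among those with at least 100 UMIs, at 0.562, 0.620 and 0.630. Rb1, the pocket protein that restrains E2F, had the highest in that group at 1.66 (1.16 to 2.41), followed by Cdk6 (a G1 kinase) at 1.28 and Ccnd3 (cyclin D3) at 1.20.

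A smaller share of T cells carried many G2/M UMIs in the Sitagliptin library. Barcodes with 3 or more G2/M UMIs in a thinned draw of 2000 were 63 of 176 (35.8%, 28.7 to 43.4) in Control and 71 of 309 (23.0%, 18.4 to 28.1) in Sitagliptin. Within them G2/M genes made up 53.6 and 49.7 UMIs per 10,000. The top 10% of T cells held 48.7% of G2/M UMIs in Control and 65.6% in Sitagliptin. The share of T cells with 4 or more G2/M UMIs of 2000 was 32.7% (25.8 to 40.1) and 20.1% (15.8 to 24.99).

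By lineage, CD8 T cells (114 and 205, with a Cd8a or Cd8b1 UMI) had G2/M sums of 2788 and 1878 CPM, a ratio of 0.673 (0.628 to 0.722), and S sums of 1222 and 1004 CPM, a ratio of 0.822. T cells without a Cd8 or Cd4 UMI (53 and 86) had 0.700 (0.615 to 0.796) for G2/M genes and 0.948 (0.804 to 1.12) for S genes. In CD4 T cells, only 9 and 18, G2/M genes were at 1377 and 2282 CPM (1.66, 1.22 to 2.30). There 1 barcode supplied 99 of 238 Sitagliptin G2/M UMIs, and without the highest barcode of each library the ratio was 1.96. The top 2 of 18 Sitagliptin barcodes held 69.3% of these UMIs. The share of CD4 barcodes with a G2/M UMI after thinning went the other way. It was 37.5% in Control and 29.7% in Sitagliptin with an S UMI, and 15.9% and 9.94% without one. The difference between the CD8 and CD4 ratios was not tested. In CD8 T cells Cdk1 was at 64.2 and 21.2 CPM (0.330, 0.181 to 0.588) and Mki67 at 531 and 299 CPM (0.562, 0.475 to 0.665).

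Other genes were read in the same T cells. Gzmb, a cytotoxic granule protease, was at 3411 CPM in Control and 2377 in Sitagliptin T cells. Ccr7, carried by naive and central memory T cells, was at 145 and 147. Cd3e was at 243 and 428, but the 6 T cell markers that include it summed to nearly the same, 2125 and 2194 CPM. All 8 macrophage markers summed to 98.2 (6 of 8 with a UMI) and 112 CPM (8 of 8). Their part in the G2/M difference was not tested. A further 652 and 577 barcodes had T cell and macrophage markers together, at median depths of 9278 and 10886 UMIs. With them counted in, the G2/M ratio of T cells was 0.921 (0.894 to 0.949). Without the 132 barcodes found in both libraries the ratio of the T class was 0.723.

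In NK cells, the member levels rest on 47 and 60 cells. S genes were higher in Sitagliptin, at 629 and 1049 CPM (1.67, 1.34 to 2.09), and G2/M genes were at 785 and 905 CPM (1.15, 0.932 to 1.43). Of the 12 members with at least 20 UMIs, 7 were higher and 2 lower, where 26.5% of 3430 genes were higher and 24.8% lower. The median log2 ratio was 0.60, against 0.01 over all genes. Pcna had 96.8 and 199 CPM (2.06, 1.18 to 3.75). The level of Mki67 was 86.0 and 179 CPM (2.09, 1.16 to 3.95). Top2a and Mcm4 each had 172 and 211 CPM, on the same UMI counts of 32 and 53. Stmn1 had 306.5 and 542 CPM (1.77, 1.29 to 2.45) and Hmgb2 559 and 734 CPM (1.31, 1.03 to 1.68). Cenpa and Mcm7 were the lower members, at ratios of 0.614 and 0.674 with intervals that hold 1. Mcm2 had no UMI in Control and 8 in Sitagliptin.

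Few NK cells held most of these UMIs. The top 5 of 47 and 6 of 60 barcodes held 76.7% and 73.1% of G2/M UMIs. The share with 3 or more G2/M UMIs in the thinned draw was 12.8% (4.83 to 25.7) and 13.3% (5.94 to 24.6), so no difference between the libraries was detectable at this number of cells. With the marker minimum doubled, which left 27 and 36 cells, the G2/M ratio was 0.640 (0.486 to 0.843), and with every barcode given the same weight it was 0.845 and the S ratio 1.21. Gzmb in NK cells was at 6248 and 2990 CPM. Of the other cell cycle genes, 7 of 10 measured G1 to S genes and 3 of 6 of G2 and mitosis were higher and 0 lower, and 4 of 15 G1 regulators were lower and 0 higher, against 26.5% of all genes higher and 24.8% lower. Of those with at least 100 UMIs, Btg2, an inhibitor of proliferation, was at 0.836 and the histone variant gene H2afz at 1.02.

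In monocytes and macrophages together, all 21 G2/M members had ratios below 1, as did 7605 of the 13245 genes tested. Aurka went from 0.994 to 1.03 when ratios were scaled to the median gene, and most differences were small. Summed G2/M genes were at 901 and 767 CPM (0.852, 0.835 to 0.868) and S genes at 561 and 482 CPM (0.859, 0.838 to 0.880). Of 36 members 11 were lower and 0 higher, where 11.6% of 13245 genes were lower and 10.6% higher. The median log2 ratio was -0.25, against -0.04 over all genes. Nearly all of these UMIs came from macrophages (974 and 838 CPM), since monocytes had 150.1 and 128 CPM.

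The 3 lowest ratios were those of Cdc20, Kif20a and Plk1. Cdc20, which activates the anaphase-promoting complex, had 4.87 and 2.58 CPM (0.529, 0.391 to 0.715), Kif20a, a motor of cytokinesis, 11.5 and 7.58 CPM (0.661, 0.550 to 0.794) and Plk1, a mitotic kinase, 18.3 and 12.4 CPM (0.681, 0.590 to 0.786). Ccna2 (0.686), Aurkb (0.711), Cdk1 (0.718) and Ube2c (0.762) were also under 0.8. Mki67, at 131 and 124 CPM (0.948), Top2a, at 143 and 129 CPM (0.901), and Birc5, the survivin subunit of the Aurora B complex, at 58.6 and 53.2 CPM (0.908), differed little. Cenpa was at 78.4 and 65.2 CPM (0.831) and Tpx2 at 53.0 and 44.3 CPM (0.836).

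S members in monocytes and macrophages moved in the same direction with a few at 1 or above. Tk1 was at 33.3 and 24.4 CPM (0.732, 0.660 to 0.812), Ccne1 (cyclin E1) at 15.3 and 11.4 CPM (0.744) and Tyms at 26.7 and 20.1 CPM (0.751). Mcm6 was at 41.3 and 32.8 CPM (0.795, 0.725 to 0.871). Mcm4 was at 96.9 and 79.8 CPM (0.823), Mcm3 at 53.3 and 44.1 CPM (0.828) and Rrm1 at 89.996 and 77.3 CPM (0.859). Pcna, at 105 and 107 CPM (1.01, 0.961 to 1.07), and Mcm2, at 8.36 and 9.08 CPM (1.09, 0.896 to 1.32), were level within counting error. Hmgb2 was higher, at 279 and 311 CPM (1.11, 1.08 to 1.15), while Stmn1 was lower, at 289 and 244 CPM (0.845, 0.817 to 0.874).

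Among the 122 other cell cycle genes, 8 of 42 G1 to S genes were lower and 0 higher, 13 of 54 G2 and mitosis genes were lower and 2 higher, and 5 of 26 G1 regulators were lower and 0 higher in monocytes and macrophages, against 11.6% of all genes lower and 10.6% higher. Their medians, -0.18, -0.18 and -0.21, were alike. Among those with at least 100 UMIs, Asf1b, a histone chaperone of replication, was lowest at 0.608 (0.523 to 0.706), with Pold1 (DNA polymerase delta) and Sgo2a (a guardian of centromere cohesion) at 0.659. Sgo1, Kif14 and Slbp, which binds histone mRNA, were highest at 1.28, 1.27 and 1.24.

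How far the share of macrophages with G2/M UMIs differed between the libraries depended on the number of UMIs asked for. Barcodes with 3 or more in the thinned draw were 472 of 2625 (18.0%, 16.5 to 19.5) and 654 of 3763 (17.4%, 16.2 to 18.6). At 2 or more UMIs of 2000 the shares were 23.6% and 24.5%, and at 4 or more 14.985% (13.6 to 16.4) and 12.1% (11.1 to 13.2). The barcodes with 3 or more had median depths of 8410.5 and 6713.5 UMIs, against 5802 and 6991.5 in barcodes with no member UMI. Barcodes rich in G2/M UMIs were thus deeper than those with no member UMI in Control and not in Sitagliptin. The part of depth in the ratio of sums was not tested. Macrophage marker sums were 10966 and 9361 CPM in the same cells.

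Dendritic cells as 1 class had nearly the same G2/M sums (496 and 496 CPM, 0.9997, 0.832 to 1.21) and S sums (356 and 345 CPM, 0.970, 0.779 to 1.21), while the ratios of their subsets lay on both sides of 1. The G2/M ratio was 1.254 (1.003 to 1.58) without the highest barcode of each library and 1.23 (1.12 to 1.34) with barcodes carrying Ptprc-low genes counted in. Of 17 measured members 4 were lower and 5 higher, where 26.5% of 5866 genes were lower and 24.1% higher. Ube2c had 78.7 and 25.1 CPM (0.319, 0.168 to 0.595) and Mcm3 14.6 and 39.7 CPM (2.72, 1.04 to 8.98). Mki67 (75.8 and 92.5 CPM), Top2a (67.1 and 78.0 CPM), Cenpa (75.8 and 100.5 CPM) and Mcm4 (84.6 and 71.4 CPM) had intervals that hold 1.

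The conventional subsets cDC1 and cDC2 gave most G2/M UMIs, 38 and 97 of 170 in Control and 152 and 120 of 375 in Sitagliptin. cDC2 (17 and 37 cells), which present antigen to CD4 T cells, had G2/M sums of 1323 and 555 CPM (0.419, 0.318 to 0.554) and S sums of 709 and 324 CPM (0.456). Of these G2/M UMIs 1 barcode gave 62 of 97 in Control and 1 gave 73 of 120 in Sitagliptin, and without them the levels were 558 and 234 CPM, again a ratio of 0.420. In cDC1, 1 of 5 Control barcodes gave 36 of 38 G2/M UMIs, and without the highest barcode of each library the ratio turned from 0.803 to 7.36 (1.99 to 61.6). Mature dendritic cells (58 and 63), marked by Ccr7 and Fscn1, had 152 and 285 CPM (1.87, 1.24 to 2.89), and 1.37 (0.857 to 2.22) without the highest barcode of each library. Plasmacytoid dendritic cells had 3 and 8 G2/M UMIs, at the level of neutrophils.

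Of the other cell cycle genes in dendritic cells, 7 of 12 measured G1 to S genes were higher and 2 lower, 2 of 17 of G2 and mitosis were higher and 4 lower, and 3 of 20 G1 regulators were higher and 8 lower, against 24.1% of all genes higher and 26.5% lower. Among those with at least 100 UMIs, Ccnd1 (cyclin D1) had the highest ratio, at 169 and 258 CPM (1.52), before Lmnb1 (lamin B1) at 1.24 and Btg2 at 1.20. Cdkn1b, a CDK inhibitor gene, was lowest at 0.781, with Ccnd2 (cyclin D2) at 0.918 and Cdkn1a at 0.935.

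In cells with little Ptprc, summed G2/M and S genes were highest and few members had ratios past 0.8 or its inverse. G2/M genes had a ratio of 0.951 (0.939 to 0.964), S genes 0.941 (0.923 to 0.959) and Hmgb2 with Stmn1 1.06 (1.04 to 1.08). Of 36 members 2 were lower and 1 higher, where 11.3% of 12745 genes were lower and 10.1% higher, so the share was below that of all genes. The median log2 ratio was -0.09, against -0.03 over all genes. Median depth was 15137 and 20865 UMIs.

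The member with the largest difference there was Ccne2 (cyclin E2), at 15.2 and 22.1 CPM (1.45, 1.23 to 1.72), with Ccne1 at 16.3 and 19.2 CPM (1.18, 0.995 to 1.40). Hmgb2 had 1065 and 1254 CPM (1.18, 1.15 to 1.20) and Birc5 263 and 295 CPM (1.12, 1.07 to 1.17). Aurkb, the kinase of the chromosomal passenger complex, had 52.8 and 41.9 CPM (0.794, 0.714 to 0.881), Rrm2 128 and 102 CPM (0.796, 0.744 to 0.851) and Plk1 63.9 and 51.9 CPM (0.812, 0.739 to 0.893). The remaining members with the most UMIs had ratios from 0.869 to 1.05. Stmn1 had 683 and 594 CPM (0.869), Ube2c 297 and 259 (0.871) and Cenpa 201 and 181 (0.897). Cenpf had 289.5 and 272 CPM (0.939), Mcm4 236 and 222 (0.942), Mki67 289 and 277 (0.959) and Tpx2 201 and 195 (0.972). Top2a had 533 and 530.4 CPM (0.995), Rrm1 186 and 194 (1.04) and Pcna 175 and 183 (1.05).

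Of the other cell cycle genes in cells with little Ptprc, 2 of 54 G2 and mitosis genes were lower and 2 higher, 0 of 42 G1 to S genes were lower and 2 higher, and 1 of 23 G1 regulators was lower, against 11.3% of all genes lower and 10.1% higher. Among those with at least 100 UMIs, Pbk, a mitotic kinase, was highest at 79.9 and 109.9 CPM (1.38, 1.28 to 1.48), before Cks2, a CDK1 subunit, at 1.36 and E2f8, an E2F repressor, at 1.33. Ccnd3 was lowest at 0.771, with Cdkn3 at 0.774 and Kif22 at 0.782.

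Within cells, S and G2/M transcripts occurred together in cells with little Ptprc, T cells and macrophages. After thinning, an S UMI was seen in 87.6% of Control cells with little Ptprc that had a G2/M UMI and 58.2% of those with none, and in 85.7% and 54.4% in Sitagliptin. T cells had 78.2% against 49.2% in Control and 68.0% against 46.2% in Sitagliptin, and macrophages 62.3% against 36.1% and 58.8% against 33.8%. NK cells (47 and 60) had a smaller gap, at 61.4% against 50.7% in Control and 63.6% against 55.0% in Sitagliptin. Monocytes showed almost no such gap, at 26.8% against 24.97% and 24.0% against 22.4%. In neutrophils, 9 and 10 cells, the gap ran the other way, at 20.3% against 35.8% in Control and 0% against 27.5% in Sitagliptin. Both readouts share the same barcodes, and all barcodes were brought to the same depth.

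**Figure D4:**
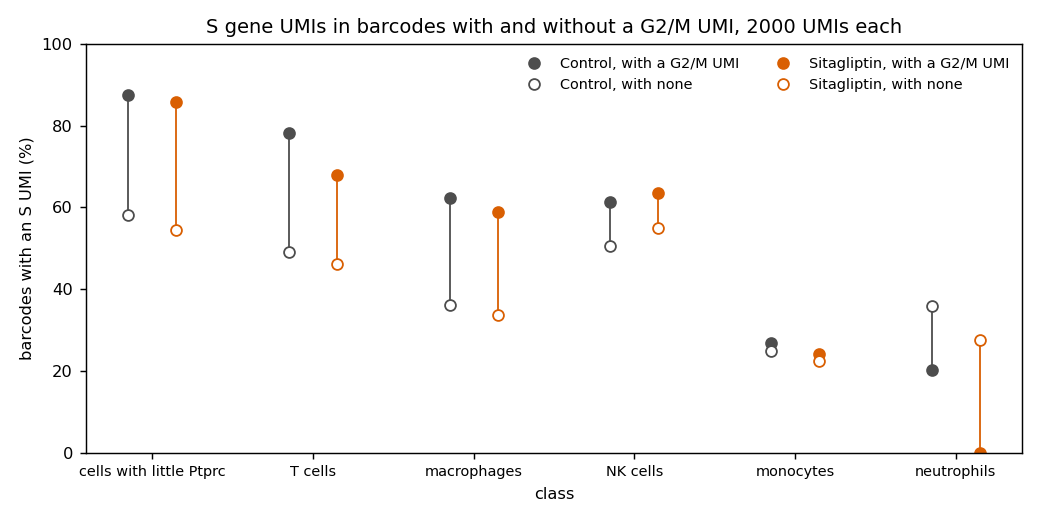
Percent of barcodes with at least 1 S UMI among 2000, for barcodes with (filled) and without (open) a G2/M UMI, by class and library. The gap is wide in cells with little Ptprc, T cells and macrophages, smaller in NK cells and nearly closed in monocytes (26.8% and 24.97% in Control).

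S members differed in how they went with G2/M UMIs. Barcodes of both libraries were divided by 3 or more G2/M UMIs in the thinned draw, which fixes the G2/M genes, but not the S genes, to be higher there. In T cells Rrm2 was at 245 CPM in the G2/M-rich barcodes and 15.1 in the rest, Rrm1 at 383 and 79.2, Tyms at 120.1 and 24.1 and Tk1 at 65.1 and 13.8. The helicase genes were closer: Mcm4 was at 253 and 154 CPM, Mcm3 at 101 and 57.8, and Mcm2 at 21.3 and 22.03. In cells with little Ptprc the median S member was 1.27 times higher in the G2/M-rich barcodes, 2 of 13 were above 2-fold (Tk1 at 2.71 and Rrm2 at 2.40), and Mcm2, Mcm6 and Mcm7 were at 0.855, 0.911 and 0.962. In monocytes and macrophages 11 of 13 were above 2-fold, with Rrm2 at 12.3 and Tk1 at 8.60. There only 4 of 486 and 4 of 758 monocytes were G2/M-rich, so nearly all monocytes, which had lower S sums than macrophages, were in the rest. The part of this mixture in the ratios was not tested. The share of all genes above 2-fold was not computed in any class, so these counts have no background beside them.

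**Figure D5:**
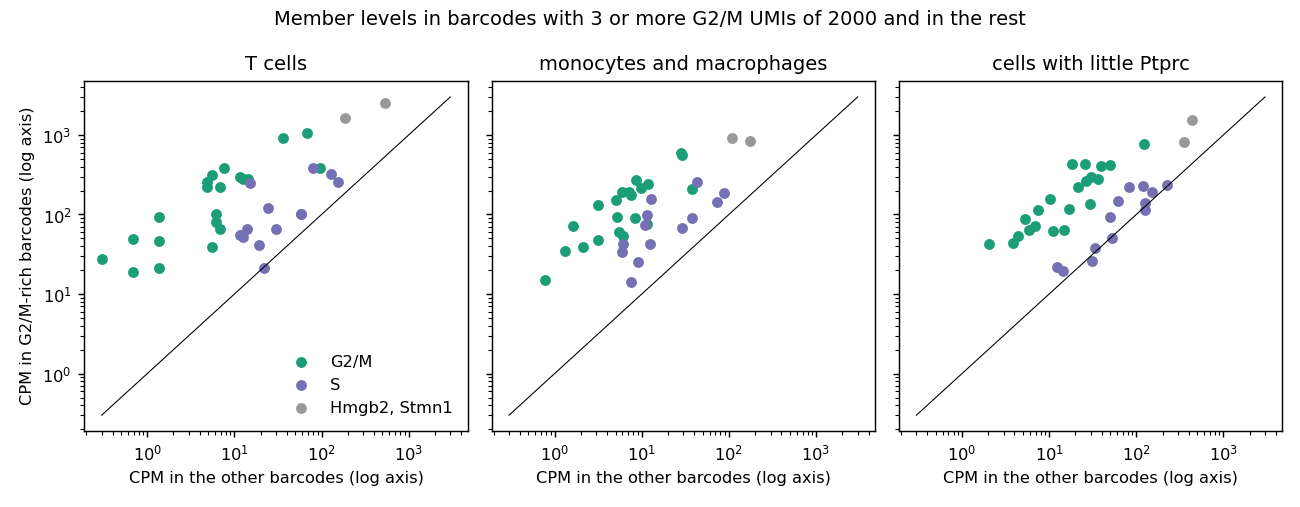
Level of each member (CPM, log axes) in barcodes with 3 or more G2/M UMIs of 2000 against the other barcodes of the class, both libraries together, with the line of equality. A value of 0 (Ccnb1 in the other T cells) is drawn at 0.3. G2/M members lie high by the choice of barcodes; S members in cells with little Ptprc lie along the line, with Tk1 and Rrm2 the highest above it.

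Genes in neither list were ranked by their level in G2/M-rich barcodes over barcodes with no member UMI. Only genes with at least 100 UMIs in the G2/M-rich barcodes were ranked, so they entered through the group where they are high. Histones were 6 of the 10 highest of 1288 genes in T cells and 7 of 10 of 7355 in monocytes and macrophages. In cells with little Ptprc they were 2 of 10 of 9362. The share of histones among all ranked genes was not computed, so these counts have no background and do not compare the classes. Near-identical copies make levels of single histone genes uncertain. In T cells Hist1h1b, a linker histone, was at 4109 and 53.0 CPM, Diaph3 (a formin) at 303 and 13.3 and Gmnn (geminin, which blocks relicensing of origins) at 274 and 13.3. Pclaf, a PCNA-binding protein, had 622 CPM and 0 UMIs in the barcodes with no member UMI. In monocytes and macrophages Hist1h1b was at 2252 and 21.7 CPM, Depdc1a at 32.2 and 0.137, Ska1 (a kinetochore protein) at 19.0 and 0.137 and Neil3 (a DNA glycosylase) at 42.0 and 0.342. In cells with little Ptprc Pclaf was at 256 and 2.83 CPM, Shcbp1 at 109.8 and 1.42, Nek2 (a centrosomal kinase) at 48.6 and 0.708 and Dlgap5 (a spindle protein) at 125 and 2.83. In NK cells Hist1h1b ranked first, and Gzmg and Gzmf, granzyme genes of activated killer cells, were at 2474 and 2133 CPM in the G2/M-rich barcodes. Cxcl2, Cd74 and Cst3, genes usual in myeloid cells, were also among the 10 in the 6 and 8 G2/M-rich NK barcodes.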

How the data were processed

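The authors deposited, for each of the 2 libraries, raw UMI counts per gene and barcode for 32285 gene IDs. Neither the aligner, the genome build, the annotation nor the strand setting is given in the sources used here. All barcodes had more than 2000 UMIs. Counts were read with scanpy 1.11.5, anndata 0.12.19, numpy 2.4.6, scipy 1.17.1 and pandas 2.3.3 under Python 3.11.15, and plotted with matplotlib 3.10.9. Doublets were scored with Scrublet (expected rate 0.06), which called none, so the highest 6% of scores were removed.

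Classes came from marker UMIs. T cells needed 3 UMIs of 2 genes and under 5 macrophage UMIs per 10,000, NK cells 2 UMIs of 2 genes and at most 1 T cell UMI, macrophages 20 per 10,000 of 3 genes, monocytes 15 of 3, dendritic cells 3 UMIs of 2, and neutrophils 6 UMIs of 3. Cells with little Ptprc had at most 0.5 Ptprc UMIs per 10,000 and at least 4000 UMIs. These limits, and the step that keeps barcodes with Ptprc-low genes out of immune classes, were set after the data were seen. So was leaving out of the calls the listed markers Klra4 (NK cells), Cadm1 and Tlr3 (cDC1), Mgl2 and Tnip3 (cDC2), Tmem123 and Socs2 (mature dendritic cells), Runx2 and Ly6d (plasmacytoid dendritic cells) and Il1r2 and Mmp9 (neutrophils). The members and lists were chosen with earlier results of these data known.

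Shares used barcodes thinned to 2000 UMIs. Genes named were the 12 members with the highest mean CPM in a class (6 in classes under 500 cells), the 3 highest and 3 lowest ratios with at least 100 UMIs in either list, and 10 companions of G2/M-rich barcodes. Other genes were named for their role. Scripts were tested on simulated data.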

Additional observations from a re-analysis of the deposited data

Results flagged for a closer look

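G2/M genes had a ratio of Sitagliptin over Control of 0.673 in CD8 T cells and 1.66 in CD4 T cells, on opposite sides of 1. In CD4 T cells the top 2 of 18 Sitagliptin barcodes held 69.3% of G2/M UMIs, and the share of barcodes with a G2/M UMI was lower in Sitagliptin. G2/M genes had a ratio of 0.419 in cDC2, where the top 2 of 17 Control barcodes held 80.4% of these UMIs. In mature dendritic cells the ratio was 1.87, and 1 barcode gave 36 of 95 Sitagliptin UMIs. The ratio there was 1.37 (0.857 to 2.22) without the highest barcode of each library. Summed S genes were lower in the Sitagliptin library in T cells (0.862), monocytes and macrophages (0.859) and cells with little Ptprc (0.941), and higher in NK cells (1.67). None of these differences between classes was tested, since each diet had 1 library. Barcodes with macrophage or monocyte markers together with Ptprc-low genes, which entered no class, had G2/M sums of 1640 CPM in Control and 1268 CPM in Sitagliptin, above the 974 and 838 CPM of macrophages. Such barcodes were chosen for RNA of the cells with little Ptprc, which had 3127 and 2974 CPM. Their median depths were 2507 and 2588 UMIs, against 6340 and 6876 in macrophages. The part of that RNA and of depth in the difference was not tested.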

How the results depend on the processing

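No paired analysis was possible because each diet had 1 library, and for the same reason no library could be left out. Of the summed ratios, 60 settings stayed within the counting interval, 53 of them on the same side of 1 as the main ratio. A further 21 moved out of it, 17 of them on the same side of 1. The remaining 1 went from 0.862 to the other side of 1 by a small margin. For shares 45 stayed, 40 of them on the same side of 1, and 5 moved, all on the same side. For counts of members 18 stayed and 22 moved.

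In T cells the G2/M ratio was 0.622 with each barcode weighing the same and 0.921 with barcodes of T cell and macrophage markers counted in. The S ratio was 0.741 with equal weights and reversed to 1.003 with the barcodes carrying Ptprc-low genes counted in, an alternative added after the data were seen. The ratio of T cell shares was 0.899 at 2 UMIs, 0.809 at 4, 0.820 with G2/M genes alone and 0.852 with S genes alone. Members lower in T cells numbered 11 of 20 at 100 UMIs and 10 of 34 at 1.5-fold, against 17 of 34 at the main setting. Members higher numbered 0 of 20 at 100 UMIs, 4 of 34 at 1.1-fold and 0 of 34 at 1.5-fold. The share of all genes past these other limits was not computed in any class, so such counts have no background beside them.

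In NK cells the G2/M ratio was 0.640 with the marker minimum doubled, 0.845 with equal weights and 1.67 with Ptprc-low barcodes counted in, and the S ratio was 1.21 with equal weights. Members lower numbered 9 of 35 at 1 UMI, 0 of 2 at 100 UMIs and 1 of 12 at 1.5-fold. Members higher numbered 20 of 35 at 1 UMI and 2 of 2 at 100 UMIs.

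In monocytes and macrophages the G2/M ratio was 0.885 scaled to the median gene, 0.814 with the marker minimum doubled, 0.882 with equal weights, 0.805 with Ptprc-low barcodes in and 0.807 at 5000 UMIs or more. The S ratio was 0.893, 0.835 and 0.830 under scaling, Ptprc-low barcodes and depth, and the share ratio with S genes alone 0.940. Of 36 members, 28 were lower at 1.1-fold and 2 at 1.5-fold, and 1 was higher at 1.1-fold. In dendritic cells the G2/M ratio was 1.23 with Ptprc-low barcodes in and 1.254 without the highest barcode of each library. Members lower numbered 11 of 35 at 1 UMI, 1 of 3 at 100 UMIs and 8 of 17 at 1.1-fold. Members higher numbered 13 of 35 at 1 UMI and 1 of 3 at 100 UMIs.

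In cells with little Ptprc the G2/M ratio was 0.970 scaled to the median gene and 0.898 with equal weights, and the S ratio 0.959 and 0.917. Of 36 members, 14 were lower at 1.1-fold and 0 at 1.5-fold, and 4 and 0 were higher. The cause of these shifts was not tested. Few cells limit NK cells, CD4 T cells and dendritic cell subsets, where 1 barcode can hold much of a sum.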
